A study of Mus musculus with 4 samples.

Results

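The stem cell reporter genes comprised Dppa2, Dppa3, Dppa4, Dppa5a, Zfp42, Fbxo15, Tcl1, L1td1 and Spp1, 9 genes whose transcripts are widely read as signs of the undifferentiated state. Their probes were taken by gene name, older name (Dppa5 for Dppa5a, Rex1 for Zfp42) or accession among the non-control spots of 4 two-colour Agilent arrays. Of the 9 genes, 8 had a spot, with 10 probes on 19 spots, and all 8 were among the 21369 genes tested. No spot carried a name or accession of L1td1, which was not analysed here.

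RNA came from ZHBTc4, a line of mouse embryonic stem cells whose Oct4 (Pou5f1) comes from a transgene that doxycycline represses. The cells had been moved off irradiated embryonic fibroblasts and kept on gelatin for 2 passages. The dox+TCP group (2 arrays) received 2 µg doxycycline together with TCP for 48 h, and the dox group (2 arrays), titled as controls in the labels, received doxycycline without TCP. On each array the treated cells were labelled with Cy5 and a ZHBTc4 reference, for which no treatment is named, with Cy3. TCP is not spelled out in the labels; it commonly abbreviates tranylcypromine, which inhibits LSD1 (Kdm1a) and monoamine oxidases. The title of the study concerns LSD1 and the shutting down of enhancers when stem cells differentiate, and dox+TCP against dox addresses which genes differ when TCP is present while Oct4 is lost. Both treated groups carried doxycycline, so the drug and the loss of Oct4 cannot be told apart in either comparison with the reference. RNA was from whole cultures, in which fewer cells expressing a gene and less RNA per cell cannot be told apart.

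Oct4, with Sox2 and Nanog, sits at the top of the transcription network that keeps embryonic stem cells undifferentiated, and it acts largely through enhancers. When Oct4 is lost, mouse stem cells turn toward trophoblast, and enhancers of the stem cell state lose their active histone marks; LSD1 removes methyl groups from lysine 4 of histone H3 at such enhancers. The reporter genes lie downstream in this network and have unlike products. Spp1 encodes osteopontin, a secreted integrin ligand; Fbxo15 encodes an F-box protein of a ubiquitin ligase and was used as a reporter in reprogramming; Dppa5a encodes a KH domain protein that binds RNA. Dppa2 and Dppa4 encode partner proteins that bind chromatin, Zfp42 (Rex1) a zinc finger protein, Dppa3 (Stella) a maternal factor that guards DNA methylation in the early embryo, and Tcl1 a coactivator of the kinase Akt.

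Start sites of 3 measured genes could be matched to RefSeq promoters of the assembly GRCm38.p6, and 3 stretches are shown because they hold, or lack, the octamer that Oct4 binds, in a gene that differed little between dox+TCP and dox (Zfp42) and in the gene that differed most (Spp1). Letters searched on both strands were ATGCNAAT for the octamer, GGGCGG for the GC box, CCAAT and TATAAA. Each stretch reads 5′ to 3′ on the strand of the gene, and capitals mark an octamer match. The Zfp42 stretch (minus strand, chr8:43307010-43307259) is the 250 bases before its start, with the match on the opposite strand from −186 to −179. The first Spp1 stretch (plus strand, chr5:104434861-104435110) is the 250 bases before the upstream start, and the second (plus strand, chr5:104435952-104436019) is the match before the downstream start with 30 bases on each side.
Zfp42 promoter: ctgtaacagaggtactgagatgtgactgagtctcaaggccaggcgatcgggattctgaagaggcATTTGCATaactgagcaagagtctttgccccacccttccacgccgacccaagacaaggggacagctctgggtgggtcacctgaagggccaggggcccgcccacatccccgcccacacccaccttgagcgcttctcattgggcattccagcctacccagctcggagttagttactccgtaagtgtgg
Spp1 upstream promoter: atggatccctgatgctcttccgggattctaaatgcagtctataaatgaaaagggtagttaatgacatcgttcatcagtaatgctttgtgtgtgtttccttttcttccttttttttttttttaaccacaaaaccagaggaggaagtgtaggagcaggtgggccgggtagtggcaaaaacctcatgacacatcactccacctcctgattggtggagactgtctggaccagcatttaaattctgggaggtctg
Spp1 octamer window: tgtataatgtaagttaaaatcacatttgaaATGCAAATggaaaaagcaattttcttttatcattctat

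The octamer was found in the 250 bases before 2.86% of 32851 mouse promoters of this table. It was in the Zfp42 promoter and before the downstream Spp1 start (−210 to −203), and not before the upstream Spp1 start or the Tcl1 start. Osteopontin is known to be controlled by Oct4 through an element in its first intron. The SOX letters (9.42% of all promoters) and the OCT-SOX composite (0.174%) were found before none of these starts. The Zfp42 promoter also held 2 GC boxes, as did the Tcl1 promoter (32.7% of all promoters hold at least 1), and the upstream Spp1 promoter held a TATAAA from −211 to −206 (12.4%). CCAAT (33.8%) matched on the opposite strand in the Zfp42 promoter (−51 to −47) and the upstream Spp1 promoter (−46 to −42). These matches are descriptions of the letters and not measured sites.

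Each array had 45018 spots, 1639 of them controls, and median Cy5 signals were 213 to 249 against median local backgrounds of 53.5 to 60. Between 68.8% and 78.1% of spots were well above background per channel, and all 10 probes of the reporter genes were well above background in 8 of 8 channels, with 0 saturated spots. Pou5f1, the gene switched off, had log2 ratios of −3.29 and −3.28 on the dox+TCP arrays and −3.38 and −3.62 on the dox arrays. The reference was not uniform: its Pou5f1 level (normalized log2 Cy3) was 12.29 and 12.47 on the dox+TCP arrays and 12.33 and 13.64 on the dox arrays, and that of Utf1, another stem cell marker, was 12.30 and 11.33 on the dox+TCP arrays and 12.33 and 12.19 on the dox arrays. The sum over 8 trophoblast markers was 14.84 and 17.52 in the Cy3 channel of dox+TCP replicates 1 and 2, and 14.56 and 17.37 in that of dox replicates 1 and 2. The replicate 1 arrays of both groups shared a slide, dox replicate 2 and dox+TCP replicate 2 had a slide each, and dox+TCP replicate 2 was scanned on another day.

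Relative to the reference, 4 of the 8 reporter genes were called lower with dox+TCP (Dppa2, Dppa4, Zfp42 and Tcl1) and 7 of the 8 with dox, all but Dppa3, at a limma adjusted p under 0.05 over all tested genes. In counts of genes below, fell and rose mean called lower and higher. All 8 means were negative in both groups, and 6 with dox+TCP and 7 with dox had a limma unadjusted p under 0.05. With dox+TCP the uncalled Spp1 (−1.42) stood lower than the called Dppa4 (−1.26). Among all 21369 genes, 15.4% were called with dox+TCP (8.09% lower) and 14.6% with dox (8.24% lower), and 0 of the 8 were called higher, against 7.32% and 6.34% of all genes. The median log2 ratio of the 8 was −1.34 with dox+TCP and −1.61 with dox, where the median of all genes was 0.03 and −0.00095. Against each other the groups gave no call: 0 of 8 reporter genes and 0% of all genes passed, while 3 of the 8 (Spp1, Fbxo15 and Dppa5a) and 937 of the 21369 genes had a limma unadjusted p under 0.05. That share of all genes is below the 0.05 that passes when no gene differs. On both dox+TCP arrays these 3 genes lay above both dox arrays, which held for 20.2% of all genes; 0 of the 8 lay below, against 12.9%, and the other 5 overlapped between the groups. The reference is shared by both comparisons with it, and dyes were not swapped, so a dye bias of a probe stays in those ratios and drops out of dox+TCP minus dox.

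**Figure D1:**
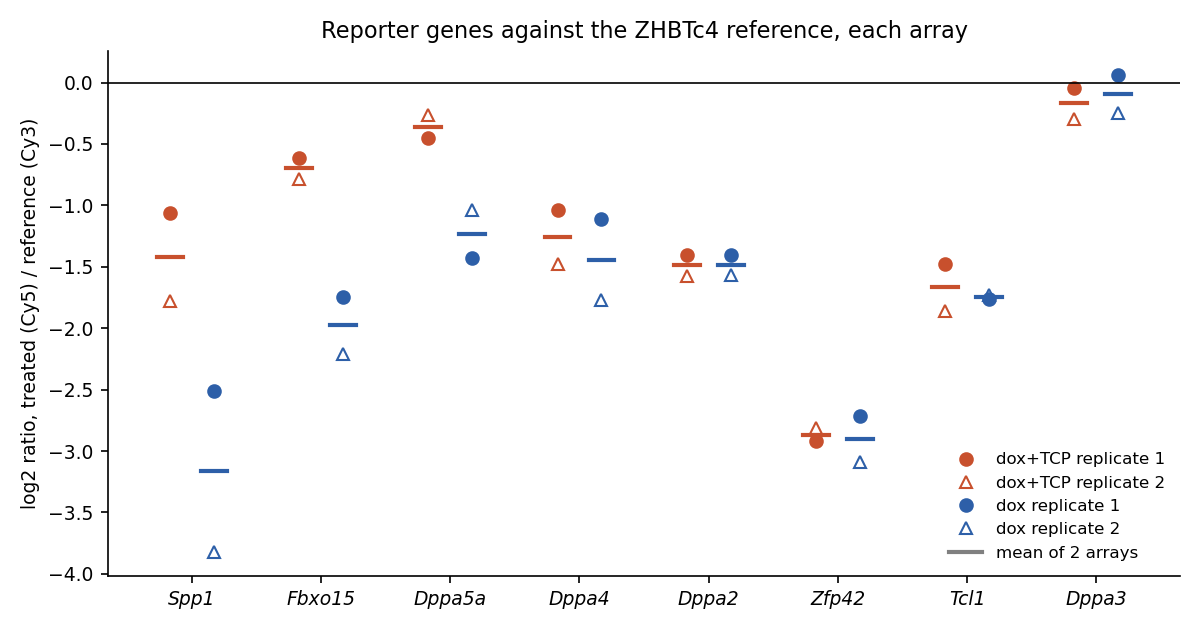
Log2 ratio of treated cells (Cy5) over the ZHBTc4 reference (Cy3) for the 8 measured reporter genes on each of the 4 arrays, dox+TCP in orange left of dox in blue, with filled circles for replicate 1, open triangles for replicate 2 and a bar at the mean of 2 arrays. Spp1, Fbxo15 and Dppa5a lie higher on both dox+TCP arrays than on either dox array, Dppa4, Dppa2, Zfp42 and Tcl1 overlap well below 0, and Dppa3 lies near 0.

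Spp1 (NM_009263; probe at chr5:103631152-103631211, plus strand, in the mm7 coordinates of the files, as for all probes below) had log2 ratios of −1.06 and −1.78 on the dox+TCP arrays and −2.51 and −3.82 on the dox arrays. The dox arrays were the lower ones, with 1.31 between them against 0.72 between the dox+TCP arrays. The difference, dox+TCP minus dox, was 1.75 ± 0.55 on the log2 scale (SE, n = 2 arrays each; 95% interval 0.18 to 3.31; limma unadjusted p = 0.0367, adjusted p = 0.996), a 3.36-fold higher level, and 1 of the 21369 genes had a larger one. Spp1 fell 8.98-fold with dox (−3.17 ± 0.39, limma adjusted p = 0.0257) and stood 2.68-fold below the reference with dox+TCP (−1.42 ± 0.39, limma adjusted p = 0.0960; 0.0237 when fitted to the dox+TCP arrays alone). It is printed on 10 spots of each array, of which 8 or 9 were usable, and their log2 ratios had SDs of 0.052 and 0.025 on the dox+TCP arrays and 0.051 and 0.085 on the dox arrays. The gaps between replicates were thus many times the spread between spots of an array. In the processed signal of the scanner software, averaged over spots, the treated cells gave 24400 and 14100 on the dox+TCP arrays and 8680 and 4390 on the dox arrays, against 50300, 47500, 50200 and 59600 in the reference channels of the same arrays.

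Spp1 is also expressed by cells other than stem cells, and the summed Cy5 level of 7 fibroblast markers was 11.99 and 10.89 on the dox+TCP arrays and 11.14 and 10.82 on the dox arrays, all 7 being well above background. Single markers differed from that sum: the ratios of Thy1 were −1.15 and −1.08 with dox+TCP and −2.13 and −1.66 with dox, so that both dox+TCP arrays lay above both dox arrays. The same order was seen for S100a4, with −0.59 and −0.26 with dox+TCP and −1.79 and −1.04 with dox, and for Vim, with −0.53 and −0.46 with dox+TCP and −1.77 and −0.88 with dox. Among all genes this order held for 20.2%. The other summed markers, Col1a1, Col1a2, Col3a1, Lum, Dcn and Postn, overlapped between the groups. So did Twist1, with a difference of −0.02. Of 22 measured fibroblast genes, 1 rose and 3 fell with dox+TCP and 0 rose and 5 fell with dox, and their median difference was 0.09 beside 0.04 for all genes. Of all genes, 7.32% were called higher and 8.09% lower with dox+TCP, and 6.34% and 8.24% with dox. The sum over 8 trophoblast markers in Cy5 was 18.12 and 18.20 with dox+TCP and 18.69 and 18.38 with dox, and that over 4 primitive endoderm markers was 10.56 and 11.26 with dox+TCP and 10.44 and 10.90 with dox. Their part in the Spp1 values was not tested.

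Fbxo15 (NM_015798; chr18:85330434-85330493) had log2 ratios of −0.62 and −0.78 with dox+TCP and −1.75 and −2.21 with dox. The groups stood apart by more than either pair of replicates differed (0.17 with dox+TCP and 0.46 with dox). The difference was 1.28 ± 0.21 (SE, n = 2 arrays each; 95% interval 0.69 to 1.87; limma unadjusted p = 0.00422, adjusted p = 0.996), or 2.42-fold, and 29 genes had a larger one. Fbxo15 was 1.62-fold below the reference with dox+TCP, which did not pass in the fit to all 4 arrays and passed in one to the dox+TCP arrays alone (−0.70 ± 0.15, limma adjusted p = 0.0579 and 0.0208), and fell 3.94-fold with dox (−1.98 ± 0.15, limma adjusted p = 0.0154). Its normalized reference level was nearly constant, at 14.78 and 14.77 on the dox+TCP arrays and 14.77 and 14.97 on the dox arrays. In these levels the gap lay mainly in the treated cells, at 14.16 and 13.99 with dox+TCP and 13.02 and 12.76 with dox. The processed signal varied more in the reference, with 65600 and 48600 on the dox+TCP arrays and 63700 and 75500 on the dox arrays. Treated cells gave 42100 and 28900 with dox+TCP and 19000 and 16600 with dox.

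Dppa5a (NM_025274; chr9:78441271-78441330, minus strand) had the shallowest of the 7 falls called with dox. Its log2 ratios were −0.45 and −0.26 with dox+TCP and −1.43 and −1.04 with dox, a difference of 0.87 ± 0.19 (SE, n = 2 arrays each; 95% interval 0.33 to 1.41; limma unadjusted p = 0.0114, adjusted p = 0.996), or 1.83-fold, with 197 genes above it. With dox+TCP it stood at −0.36 ± 0.13 (limma adjusted p = 0.167), and with dox it fell 2.35-fold (−1.23 ± 0.13, limma adjusted p = 0.0220). A dimmer probe, which the files place at chr5:28571256-28571315 although the gene lies on chromosome 9, gave −0.58 and −0.46 with dox+TCP and −1.62 and −1.36 with dox, so both probes separate the groups in the same way. The bright probe depends on the processing: the log ratios of the scanner software were lower on every array, −0.88 and −0.67 with dox+TCP and −1.76 and −1.52 with dox. Part of its difference lay in the reference: the Cy5 levels differed by 0.55 between dox+TCP and dox and the Cy3 levels by −0.32. With local backgrounds exactly as read the difference turned to −0.07, and with median centring in place of loess Dppa5a stood at 0.50 with dox+TCP and at −0.25 with dox against the reference (limma adjusted p = 0.473 for dox).

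Zfp42 showed the other pattern, a deep fall in both groups. Its log2 ratios (NM_009556; chr8:42080786-42080857, minus strand) were −2.92 and −2.82 with dox+TCP and −2.71 and −3.09 with dox, and the dox+TCP arrays lay between the dox arrays. The transcript fell 7.29-fold with dox+TCP (−2.87 ± 0.13, limma adjusted p = 0.0160) and 7.48-fold with dox (−2.90 ± 0.13, limma adjusted p = 0.0124). The difference was 0.04 ± 0.18 with a 95% interval from −0.47 to 0.54 (n = 2 arrays each; limma unadjusted p = 0.848) that ends below the differences of Spp1, Fbxo15 and Dppa5a. The intervals of Spp1 and Dppa5a begin at 0.18 and 0.33, and the difference between genes was not tested. A second probe at chr8:42080746-42080805 gave −3.17 and −3.06 with dox+TCP and −2.92 and −3.25 with dox, a difference of −0.04. Both probes thus put the groups within 0.04 of each other on the log2 scale.

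Dppa2 and Dppa4, whose proteins act as a pair and whose genes are neighbours on chromosome 16 (NM_028615 at chr16:48078749-48078808 and NM_028610 at chr16:48053770-48053829, plus strand), fell to similar depths. Dppa2 had log2 ratios of −1.40 and −1.57 with dox+TCP and −1.40 and −1.56 with dox, so the replicates differed more than the groups. It fell 2.80-fold both with dox+TCP (−1.49 ± 0.10, limma adjusted p = 0.0165) and with dox (−1.48 ± 0.10, limma adjusted p = 0.0144), and the 95% interval of the difference was −0.39 to 0.38 (n = 2 arrays each). Dppa4 had −1.04 and −1.48 with dox+TCP and −1.11 and −1.77 with dox, the low value in each group being that of replicate 2. It fell 2.39-fold with dox+TCP (−1.26 ± 0.22, limma adjusted p = 0.0414) and 2.72-fold with dox (−1.44 ± 0.22, limma adjusted p = 0.0338; 0.0588 without dox replicate 2). The difference of 0.18 ± 0.31 has a 95% interval from −0.69 to 1.05, wide enough to hold the value of Dppa5a.

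Tcl1 (NM_009337; chr12:102711536-102711595, minus strand) gave processed signals of 504 and 342 in dox+TCP cells and 423 and 577 in dox cells, with no order between the groups. Its log2 ratios were −1.48 and −1.86 with dox+TCP and −1.76 and −1.73 with dox, the dox values lying between the dox+TCP values. Tcl1 fell 3.18-fold with dox+TCP (−1.67 ± 0.12, limma adjusted p = 0.0169) and 3.35-fold with dox (−1.74 ± 0.12, limma adjusted p = 0.0151). The difference was 0.08 ± 0.17 (95% interval −0.42 to 0.57, n = 2 arrays each). The Tcl1 values against the reference depended on the processing. With local backgrounds as read they were −0.47 with dox+TCP and −0.90 with dox (limma unadjusted p = 0.392 and 0.152). Log ratios of the scanner software gave −1.94 with dox+TCP and −1.86 with dox.

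Dppa3 (NM_139218; chr6:122666937-122666996, plus strand) was the one reporter gene not called in any comparison. Its log2 ratios were −0.04 and −0.30 with dox+TCP and 0.06 and −0.25 with dox, so all 4 lay near 0, with replicate 2 below replicate 1 in both groups. The means were −0.17 ± 0.13 with dox+TCP (limma adjusted p = 0.435) and −0.09 ± 0.13 with dox (limma adjusted p = 0.693). The ratios conceal a shift in both channels. The reference level was 8.80 and 10.12 on dox+TCP replicates 1 and 2 and 8.79 and 10.18 on dox replicates 1 and 2, and the treated cells followed with 8.75 and 9.82 with dox+TCP and 8.85 and 9.93 with dox. The reference of the replicate 2 arrays was thus brighter by 1.36, a shift that only 0.501% of the tested genes exceeded, while the other 7 reporter genes shifted by −0.13 to 0.32. Between the replicates, the trophoblast markers named above moved in the same direction in the reference, 7 of 8 being brighter in replicate 2, by a median of 1.45, as did 4 of 4 primitive endoderm markers, by 0.66, while 2 of 7 fibroblast markers were brighter, with a median of −0.15. That median hides larger shifts of Col1a1 (−2.37) and Col1a2 (−1.54). The summed Cy3 level of the 7 was 12.19 and 11.20 on dox+TCP replicates 1 and 2. On dox replicates 1 and 2 it was 12.17 and 11.32. The part of these markers in the Dppa3 values was not tested.

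**Figure D2:**
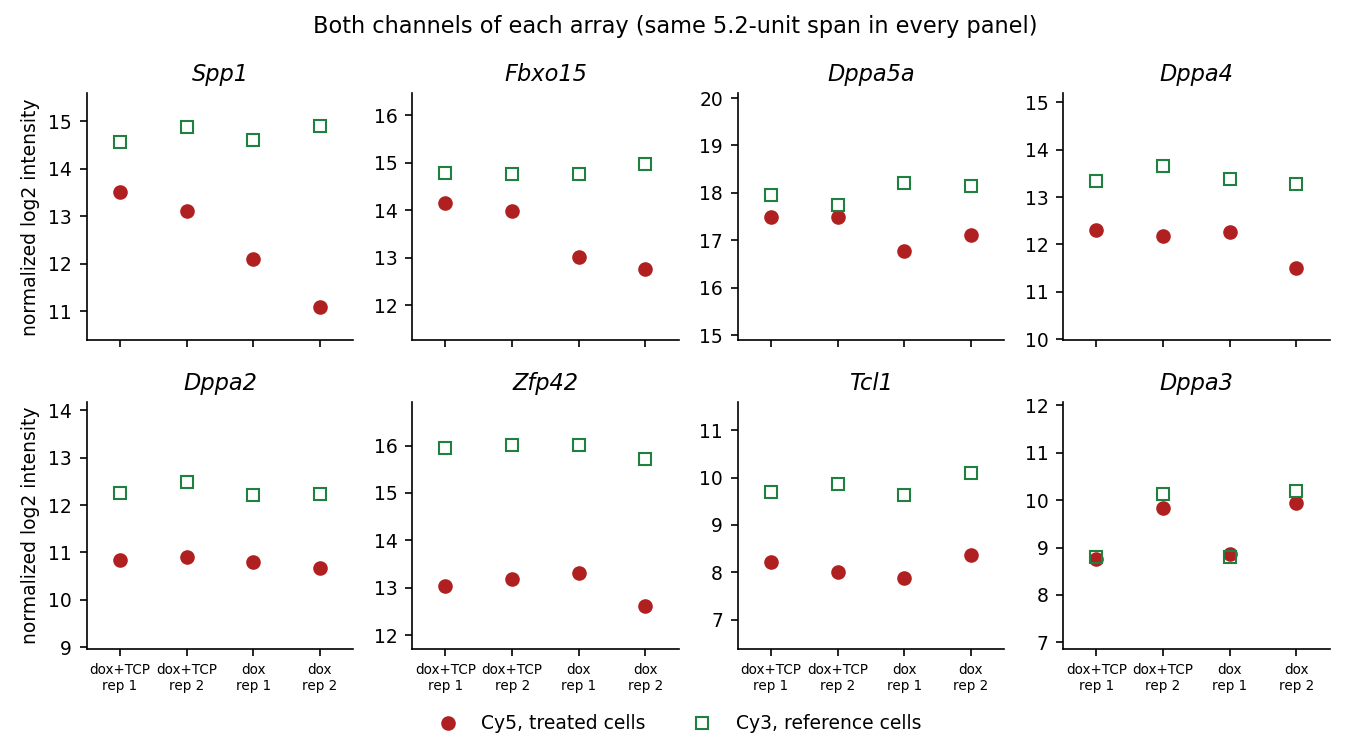
Normalized log2 intensity of the treated cells (filled red circles, Cy5) and of the reference (open green squares, Cy3) on the dox+TCP arrays, at the left, and the dox arrays, at the right, in 1 panel per reporter gene with the same span. For Dppa3 both channels are higher on the replicate 2 arrays, the reference of Dppa5a is lower by 0.32 with dox+TCP than with dox, and the treated cells are higher with dox+TCP than with dox for Spp1, Fbxo15 and Dppa5a.

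The Cy5 levels gave nearly the same division, though they were normalized together with the reference channel and are not independent of it. Both dox+TCP arrays lay above both dox arrays for 4 reporter genes, against 10.4% of all tested genes, namely Spp1 (by 1.72 on average), Fbxo15 (1.18), Dppa5a (0.55) and Dppa2 (0.14), and none lay below, against 11.8%. Dppa2, which overlapped in the ratios, had 10.85 and 10.90 with dox+TCP and 10.81 and 10.67 with dox, and its reference moved by the same 0.14. On the slide that held replicate 1 of both groups, where slide and scan day are shared, dox+TCP minus dox was 1.45 for Spp1, 1.13 for Fbxo15 and 0.97 for Dppa5a, and between the replicate 2 arrays, which shared no slide or scan day, it was 2.04, 1.42 and 0.77. The other 5 genes differed by −0.20 (Zfp42) to 0.28 (Tcl1) within the shared slide and by −0.13 (Tcl1) to 0.29 (Dppa4) between the replicate 2 arrays. The 3 genes with the large differences were thus the same in both pairs, and the signs of Zfp42, Tcl1 and Dppa2 were opposite between the pairs. For Spp1, Fbxo15 and Dppa5a a positive sign in both pairs was fixed in advance, because their groups do not overlap.

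**Figure D3:**
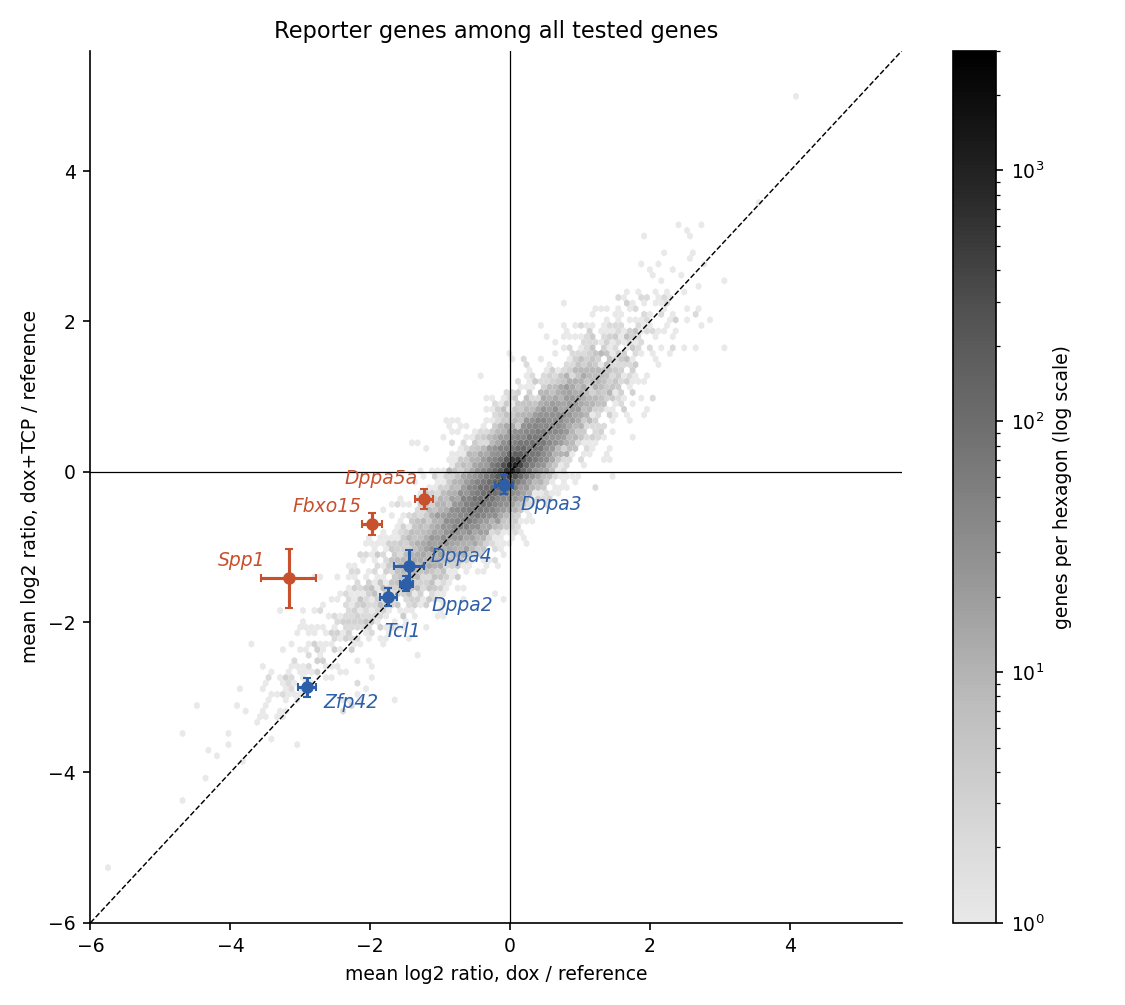
Mean log2 ratio to the reference with dox+TCP (vertical axis) against dox (horizontal axis) for all tested genes as grey hexagons, shaded by the number of genes on a log scale, with the reporter genes as points with SE bars of both means and a dashed line of equal values. Spp1, Fbxo15 and Dppa5a (orange) lie above the line, and Zfp42, Tcl1, Dppa2, Dppa4 and Dppa3 (blue) lie within 1 SE of the difference from it; both axes use the same reference.

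The reporter genes can be set beside other transcripts of the stem cell state. Of 30 measured stem cell associated transcripts other than the reporter genes, 20 fell and 2 rose with dox+TCP (median −1.52), and 20 fell and 0 rose with dox (median −1.60). One that rose with dox+TCP was Tfcp2l1, a transcription factor gene of the naive state (1.00, limma adjusted p = 0.026, against 0.22 with dox, 0.325). Of 21 measured core regulators of pluripotency, 11 fell and 2 rose with dox+TCP and 12 fell and 0 rose with dox, and the Krüppel-like factor gene Klf2 rose with dox+TCP (1.06, limma adjusted p = 0.030, against 0.0064 with dox, 0.984). Myc, a growth regulator of the same list, went the other way: it fell with dox+TCP (−1.70, limma adjusted p = 0.0411) and stood at −0.06 with dox (0.924). No member of either list was called between dox+TCP and dox, where the medians were 0.22 and 0.23 beside 0.13 for the 8 reporter genes and 0.04 for all genes. The pattern of Zfp42 was also that of Tdgf1, a Nodal co-receptor gene, with −3.53 and −3.51 with dox+TCP and −3.58 and −3.26 with dox. The growth factor gene Gdf3 also fell in both groups, with −2.29 and −2.37 with dox+TCP and −2.49 and −2.40 with dox, a difference of 0.12. Higher ratios with dox+TCP on both arrays, as for Fbxo15, were seen for other transcripts. Khdc3, a gene of the oocyte and early embryo, had −0.99 and −1.59 with dox+TCP and −2.36 and −2.16 with dox (0.97), and the nuclear receptor gene Nr5a2 had −1.70 and −1.69 with dox+TCP and −2.33 and −2.33 with dox (0.63). A difference of the size seen for Dppa5a thus occurred among other stem cell transcripts, and the reporter genes were not tested against them.

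Patterns were compared with tested genes that have an established name, leaving out the reporter genes and clone or predicted transcripts. By Euclidean distance over the log2 ratios of the 4 arrays, the gene nearest to Spp1 was Glod5 at 1.02. Of these named genes, 0% lay within a distance of 1. Fbxo15 was nearest to Cyct (0.431), Dppa5a to Gsdmd (0.25) and Zfp42 to D1Pas1 (0.222). The remaining genes had closer partners: Dppa4 was nearest to Nrg1 (0.168), Dppa2 to Cenpb (0.073), Dppa3 to Krt222 (0.067) and Tcl1 to Tlr2 (0.047). Against these named genes, Spp1 was thus the most isolated of the 8 in its pattern. Dppa3 was the most common, with 59.0% of the named genes within a distance of 1.

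**Figure D4:**
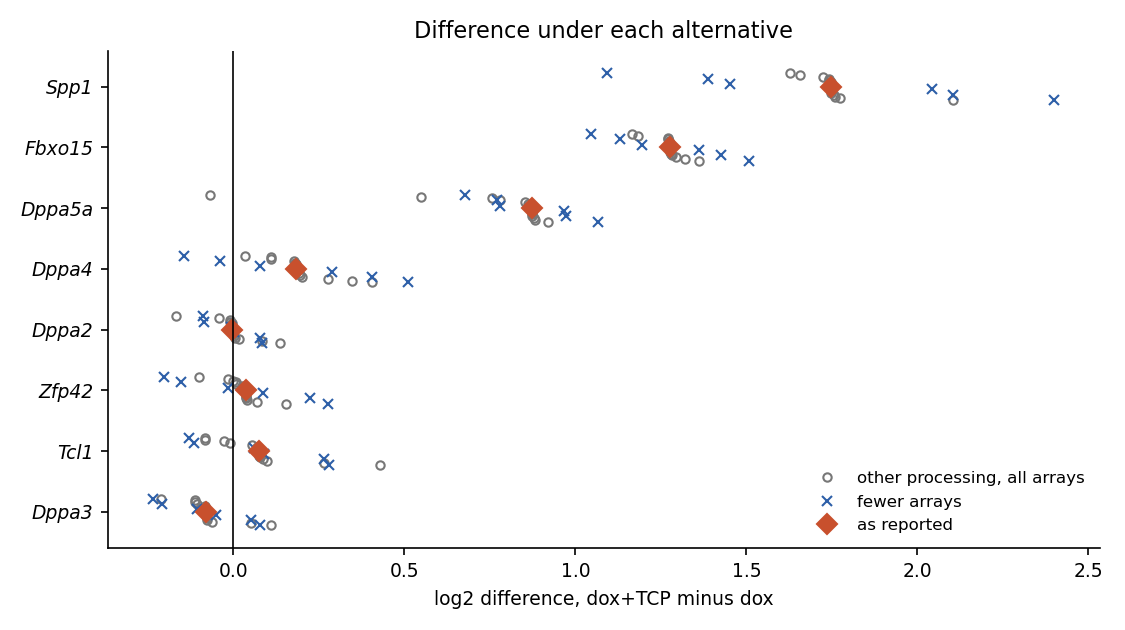
Log2 difference, dox+TCP minus dox, of each reporter gene as reported (orange diamonds), under other processing of all 4 arrays (grey circles) and from fewer arrays (blue crosses). Scan day as a block, drawn as a grey circle, equals leaving out dox+TCP replicate 2. Spp1 spans 1.09 to 2.40 and Fbxo15 1.05 to 1.51, Dppa5a lies below 0 in 1 of 22 alternatives, and the other 5 genes lie on both sides of 0.

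The differences of Spp1 and Fbxo15 were positive in 22 of 22 alternatives (1.09 to 2.40 and 1.05 to 1.51), that of Dppa5a in 21 of 22, and those of the other 5 genes took both signs. Not all alternatives could change a difference: the filters, the replicate block and the moderation left it as it was. For Spp1, Fbxo15 and Dppa5a, whose groups do not overlap, leaving out arrays could not turn the sign. Their signs could thus turn only under other background correction, normalization, probe choice or channel. The calls against the reference depended on the processing, and so did some of the values. With local backgrounds as read, Tcl1 stood at −0.47 with dox+TCP and at −0.90 with dox, and Dppa5a at −0.34 with dox. Zfp42 moved little, to −2.84 with dox+TCP and −2.86 with dox. All 7 calls with dox and all 4 with dox+TCP were lost with trend and robust moderation and with local backgrounds as read. The 7 with dox were also lost when fitted to the dox arrays alone. The log2 ratios of these genes stayed negative under each of these alternatives. Scan day as a block set apart dox+TCP replicate 2, the only array of its day. That block equals the fit without this array and cannot adjust for scan day. With 2 arrays a group, and 2 residual and 1.79 prior degrees of freedom in the fit, the median SE of a difference was 0.161.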

How the data were processed

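RNA of ZHBTc4 cells was hybridised to 4 two-colour arrays (design 014868), with 2 biological replicates per group per the labels. Spot and local background intensities are as scanned with Agilent Feature Extraction 10.1.1.1, per the file headers and the submitters' processing notes. The log10 ratios deposited beside them had their background subtracted and their dyes normalized in that program, and the log10 values of the deposited series matrix matched them within 0.005. Probe positions are mm7 (NCBI35), per the file headers.

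Mean signals were corrected with normexp (offset 50) in limma 3.58.1 under R 4.3.3, and loess was applied within arrays. Any local background above 2 times the median of its array and channel (11 to 112 spots) was set to that median, a step chosen with the data seen. Control spots and outlier spots (119 to 176 per array) were left out. Levels per channel are log2 intensities computed from the deposited signals after quantile normalization of the mean log intensity (Aquantile). Probes were tested if well above background in the Cy5 channel of 2 arrays of 1 group, or in Cy3 on 4 arrays, and the brightest probe stood for a gene. Names were updated through a GRCm38.p6 table, used for names and gene order only (22951 probes by accession, 6659 by symbol, 3109 by synonym, 8455 unchanged). Promoters are RefSeq sequences of that assembly.

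limma fitted a mean per group over the 4 arrays, with eBayes and Benjamini-Hochberg adjustment at 0.05 over 21369 genes. The fit treats the reference as 1 control sample and estimates no separate spread for it. Its levels differed between the replicate 1 and replicate 2 arrays, and these differences enter the log ratios and their spread. The genes named are the reporter genes, Pou5f1 and Kdm1a, the nearest gene to each, and up to 4 genes per list by p in 2 comparisons. Neighbouring genes were added after their values were seen. The members and lists were chosen with earlier results of these data known. The fit was tested on simulated data. Alternatives covered background, normalization, filter, probe choice, moderation, blocks and arrays left out.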

Additional observations from a re-analysis of the deposited data

How the results depend on the processing

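Between dox+TCP and dox, 0 genes and 0 reporter genes were called under each tested alternative (214 to 2822 genes at an unadjusted p under 0.05). Against the reference, the counts of 3293 genes with dox+TCP and 3115 with dox became 0 and 0 with trend and robust moderation and with local backgrounds as read. The reporter gene counts of 4 and 7 also became 0 and 0. At an unadjusted p under 0.05 there were 6 and 4 reporter genes with dox+TCP and 7 and 5 with dox. Scan day as a block equals leaving out dox+TCP replicate 2, the only array of its day, and is no separate check. From the arrays of 1 group alone there were 5920 genes with dox+TCP, and 0 genes and 0 reporter genes with dox (7 unadjusted). Median centring gave 5100 genes with dox+TCP (3997 higher, 1103 lower, against 1564 and 1729) and 6010 with dox (4879 higher, 1131 lower, against 1354 and 1761), with the median of all genes at 0.18 in both. With the replicate block there were 5146 and 4872; Fbxo15 and Spp1 then passed with dox+TCP (limma adjusted p = 0.0289 and 0.0173), as they did from the dox+TCP arrays alone (0.0208 and 0.0237), and the block changed no other call of a reporter gene. The labels do not say that equal numbers share a culture (deviations correlated at 0.472 over 2 pairs). Leaving out 1 array gave 0 to 5920 genes and 0 to 6 reporter genes with dox+TCP, and 0 to 4104 genes and 0 to 7 reporter genes with dox; the zeros came without either dox+TCP array, and a lone array is then assumed to vary like the other group. Scanner ratios put Dppa5a past the threshold with dox+TCP (−0.77, limma adjusted p = 0.0394).

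Signs turned for small differences, dox+TCP minus dox. Dppa2 was 0.0023 without background subtraction, 0.0050 with an offset of 16, 0.00017 with scanner ratios, 0.0156 with scaling between arrays, 0.0828 with scan day as a block and 0.1362 from Cy5 levels, an alternative chosen after seeing the data. Dppa3 was 0.1106 and Dppa5a −0.0680 with backgrounds as read, and Dppa3 0.0508 with scan day as a block. Tcl1 was −0.0824 with scanner ratios, −0.0830 with the series matrix, −0.0281 with median centring and −0.0100 from Cy5 levels. Zfp42 was −0.1013 with median centring, −0.00050 as the mean of its probes and −0.0142 with scan day as a block. Leaving out 1 array gave −0.0893 to 0.0828 for Dppa2, −0.2351 to 0.0781 for Dppa3, −0.1435 to 0.5116 for Dppa4, −0.1530 to 0.2257 for Zfp42 and −0.1140 to 0.2647 for Tcl1. Against the reference, median centring turned Dppa3 (0.1484 with dox+TCP, 0.3589 with dox) and Dppa5a (0.5019 with dox+TCP), and leaving out 1 array gave −0.2488 to 0.0644 for Dppa3 with dox. The cause was not tested. Slide as a block was not run, because it left no residual degrees of freedom; the values within the shared slide stand in its place.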

Other observations

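Genes beside the reporter genes, in the gene order of GRCm38.p6, did not always follow them; they were looked at after their values were seen. Morc1, a germ cell gene next to Dppa2, had log2 ratios of −2.003 and −1.710 with dox+TCP and −3.10 and −3.42 with dox, a difference of 1.40, while Dppa2 and Dppa4 on its other side differed by −0.0032 and 0.18. Morc1 fell in both groups (limma adjusted p = 0.017 with dox+TCP and 0.012 with dox). Ooep, an oocyte gene next to Dppa5a, had −2.21 and −1.56 with dox+TCP and −3.09 and −2.11 with dox, a difference of 0.71 beside 0.87 for Dppa5a. Dppa3, which stayed near 0, lies between 2 genes that fell with dox: Gdf3 (−2.33 with dox+TCP, −2.44 with dox) and Nanog (−0.55 with dox+TCP, limma adjusted p = 0.133, and −1.10 with dox, 0.038). The neighbours of Spp1, Mepe and Pkd2, differed by −0.09 and 0.04 between dox+TCP and dox, and those of Fbxo15, Cyb5a and Timm21, by −0.14 and −0.36, so the differences of Spp1 and Fbxo15 were not seen in the genes beside them.

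Of 15 measured germ cell genes, 2 rose and 1 fell with dox+TCP and 2 rose and 3 fell with dox, where 7.32% and 8.09% of all genes were called higher and lower with dox+TCP and 6.34% and 8.24% with dox, and 13 had a positive difference between dox+TCP and dox (median 0.28), with none called. Hormad1, a meiotic chromosome gene, had −1.23 and −0.73 with dox+TCP and −1.99 and −1.99 with dox (limma unadjusted p = 0.010). Kdm1a stood at 0.04 with dox+TCP (limma adjusted p = 0.810) and at 0.25 with dox (0.151).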
